A study of Mus musculus with 8 samples.

Results

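The proteins that read and erase N6-methyladenosine (m6A) were followed at the transcript level after acute loss of METTL3, the catalytic subunit of the complex that writes this mark on mRNA. The set held 7 genes: the YTH-domain readers Ythdf1, Ythdf2, Ythdf3, Ythdc1 and Ythdc2, and the demethylases Fto and Alkbh5. They were picked by gene name, and 6 of the 7 had a row under their own name, among 35494 loci (1 h table) or 35541 loci (8 h and 24 h tables). Ythdc1 was present only in a locus that also carries Gm16579 and Gm43055, so its values belong to that locus and are kept apart from the counts of members. Ythdc2 had 2 loci, and the one with the higher level was used. The other one reached at most 0.262 FPKM and was not tested.

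The samples were mouse retinal organoids at day 6 of differentiation, from a single engineered line with GFP at Rx (Rax), a gene of the early eye field. In all groups, untreated organoids included, both endogenous Mettl3 alleles carried a C-terminal FKBP12F36V-HA degron. The small molecule dTAG-13 brings this tag to a ubiquitin ligase, and it was given at 125 nM for 1, 8 or 24 h. Each time and the untreated group (0 h) had 2 samples, 8 in all, and the labels give neither the number of organoids per sample nor the solvent given to the 0 h samples.

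In m6A biology, a writer complex methylates adenosines in a short consensus, often in long internal exons and near stop codons. YTH-domain proteins bind the methylated base through an aromatic pocket: the YTHDF paralogs in the cytoplasm, where they are known above all for mRNA decay and effects on translation, and YTHDC1 in the nucleus, where it acts in splicing, export and chromatin-associated RNA. In neural progenitors the mark is known to speed the turnover of many transcripts that encode regulators of cell fate. FTO and ALKBH5 are iron- and oxoglutarate-dependent dioxygenases that can remove it.

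The coding regions of the 3 Ythdf genes were set side by side. Ythdf1 (chromosome 2, 180904377 to 180920949, minus strand, GRCm38), Ythdf2 (chromosome 4, 132184912 to 132212303, minus strand) and Ythdf3 (chromosome 3, 16183212 to 16217037, plus strand) each had 5 exons in the GENCODE M21 representative transcript. In all 3 the long exon 4 held most of the coding sequence, with 1521 of 1677 coding bases in Ythdf1, 1584 of 1737 in Ythdf2 and 1599 of 1755 in Ythdf3. A copy of GGACT, the core letters of the m6A consensus preferred by METTL3, lay at the same aligned place of this exon in Ythdf1 and Ythdf2. The window shown was placed on this copy in Ythdf2, and the aligned bases are given because they differ between the paralogs. Capitals mark the 5 bases of the site, and positions are counted from 1 at the first base shown.

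Ythdf2: aatctgctgtGGACTacaacacatg
Ythdf1: agtcccctgtGGACTacggcaccag
Ythdf3: agtctgttgtAGACTataatgctta

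These bases lie at chr4:132204403-132204427 (minus strand), chr2:180910958-180910982 (minus strand) and chr3:16205129-16205153 (plus strand). Relative to Ythdf2, Ythdf3 carried G11A within the site, and 17 of its 25 bases were identical, against 18 of 25 in Ythdf1. The altered letters still belong to the broader consensus, which admits A, G or U at the first base. Methylation was not measured here, so the letters do not show whether any of these sites carries m6A. The part of these letters in the members' ratios was not tested. In the whole coding sequence, GGACT occurred 1 time in Ythdf1, 2 times in Ythdf2 and 1 time in Ythdf3, and the median over 10964 tested genes was 2. The parts of the transcripts outside the coding sequence were not searched for GGACT. The long exon 4 held 1 copy in each of the 3 genes, which in Ythdf3 lay at another place of that exon. Aligned end to end, the coding sequences were 67.5% identical between Ythdf1 and Ythdf2, 68.6% between Ythdf1 and Ythdf3 and 69.8% between Ythdf2 and Ythdf3. The longest stretch of identical bases shared by any pair of these transcripts was 22 bases (Ythdf1 and Ythdf2), short beside the 150-base paired-end reads.

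The stretch from 250 to 51 bases before the RefSeq start site is printed for Ythdf1 and Ythdf2, since these members rose together. Capitals mark matches, on either strand and not overlapping one another, to 6 promoter motifs: the GC box (GGGCGG), the CCAAT box, the E-box (CACGTG), the TATA box (TATAAA), an ETS-factor motif (CCGGAAG) and the cAMP response element (TGACGTCA).

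Ythdf1: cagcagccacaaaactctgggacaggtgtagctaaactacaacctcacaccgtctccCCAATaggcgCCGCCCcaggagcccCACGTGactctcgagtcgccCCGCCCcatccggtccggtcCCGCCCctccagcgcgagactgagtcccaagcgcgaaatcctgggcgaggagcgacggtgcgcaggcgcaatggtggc
Ythdf2: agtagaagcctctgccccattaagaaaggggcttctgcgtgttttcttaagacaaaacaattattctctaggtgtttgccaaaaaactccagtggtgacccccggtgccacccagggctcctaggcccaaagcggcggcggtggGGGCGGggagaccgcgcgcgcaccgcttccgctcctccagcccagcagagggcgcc

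These are chr2:180920987-180921186 and chr4:132212307-132212506, both on the minus strand of GRCm38.p6, from the RefSeq promoter table, which held 5 of the 7 members, without Ythdf3 and Ythdc2. The Ythdf1 window had 3 GC boxes, 1 CCAAT and 1 E-box, and the Ythdf2 window had 1 GC box. Among 32851 windows of the same length, 24.6% held a GC box, 28.4% a CCAAT and 4.34% the E-box letters. The other 3 motifs were in 9.14% (TATA box), 3.98% (ETS) and 0.828% (cAMP response element) of windows and in neither of these. Of the 6 motifs, the GC box was the one that both windows held. Both windows were rich in G and C, with 66.5% in Ythdf1 and 61.0% in Ythdf2, above 86.6% and 76.7% of windows. The share with a GC box among windows of like composition was not computed. Ythdc1 had 4 GC boxes in the same stretch, and Fto and Alkbh5 had none of the 6. A match is a run of letters and no evidence of binding.

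Each deposited value combines both replicates of a condition. Replicate spread is therefore not visible, no p-value was computed, and the error given is the authors' deposited interval, whose level is not stated. A standard error (SE) of the log2 ratio was added from the authors' deposited variances of the estimated counts. It does not use the FPKM intervals, some of which are relatively wider. Ythdc2 at 1 h had 6.64 FPKM (3.73 to 9.56), beside 1244 estimated counts (SD 134). Levels are in FPKM, that is fragments scaled to transcript length and library size. A locus was tested at 1 FPKM or more in either condition, and called when FPKM with 0.1 added differed at least 1.5-fold and the intervals did not overlap. Each condition held between 31361518 and 32562075 estimated counts in all. Between 13690 and 13910 loci were tested per table. All 7 markers of the early eye field and retinal progenitors were detected, with a summed FPKM of 557 before and 696 after 8 h, and of 559 before and 748 after 24 h. None of the 7 was called at 8 h, and Rax and Lhx2 were called higher at 24 h. The 5 pluripotency markers summed to 285 FPKM at 0 h and 188 at 24 h, and most of this difference came from Dppa5a (200 to 109 FPKM). At 24 h Dppa5a was the 1 of the 5 called, against 1.65% of all loci called lower. Pou5f1 (34.8 to 28.8), Nanog (20.8 to 18.9) and Esrrb (9.28 to 8.18) were somewhat lower without a call, and Zfp42 was higher (20.1 to 22.8). Of the neuron and mesendoderm markers with a row of their own, none exceeded 4.64 FPKM in any condition. The part of these markers in the members' ratios was not tested. Mettl3 itself, at 19.4 FPKM (10.7 to 28.1) before and 19.4 (10.8 to 28.0) at 8 h, was not called. Loss of the tagged protein itself is not visible in RNA.

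In untreated organoids, the cytoplasmic readers and Fto stood at nearly the same level. In the 8 h table the 0 h FPKM was 46.3 (interval 37.5 to 55.1) for Ythdf3, 44.8 (36.1 to 53.5) for Ythdf1, 44.0 (35.1 to 53.0) for Fto, 42.6 (33.2 to 52.0) for Ythdf2, 33.5 (27.0 to 40.1) for Alkbh5 and 6.74 (5.35 to 8.14) for Ythdc2. Neighbours in this order overlapped in their intervals, except Alkbh5 and Ythdc2. Ythdf3 was thus 6.87 times as abundant per length as Ythdc2, an RNA helicase best known from meiosis. The other 2 tables gave the same order at 0 h. The locus holding Ythdc1 stood at 53.9 FPKM (42.1 to 65.8). In bulk RNA, a lower level in every cell and fewer expressing cells cannot be told apart.

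**Figure D1:**
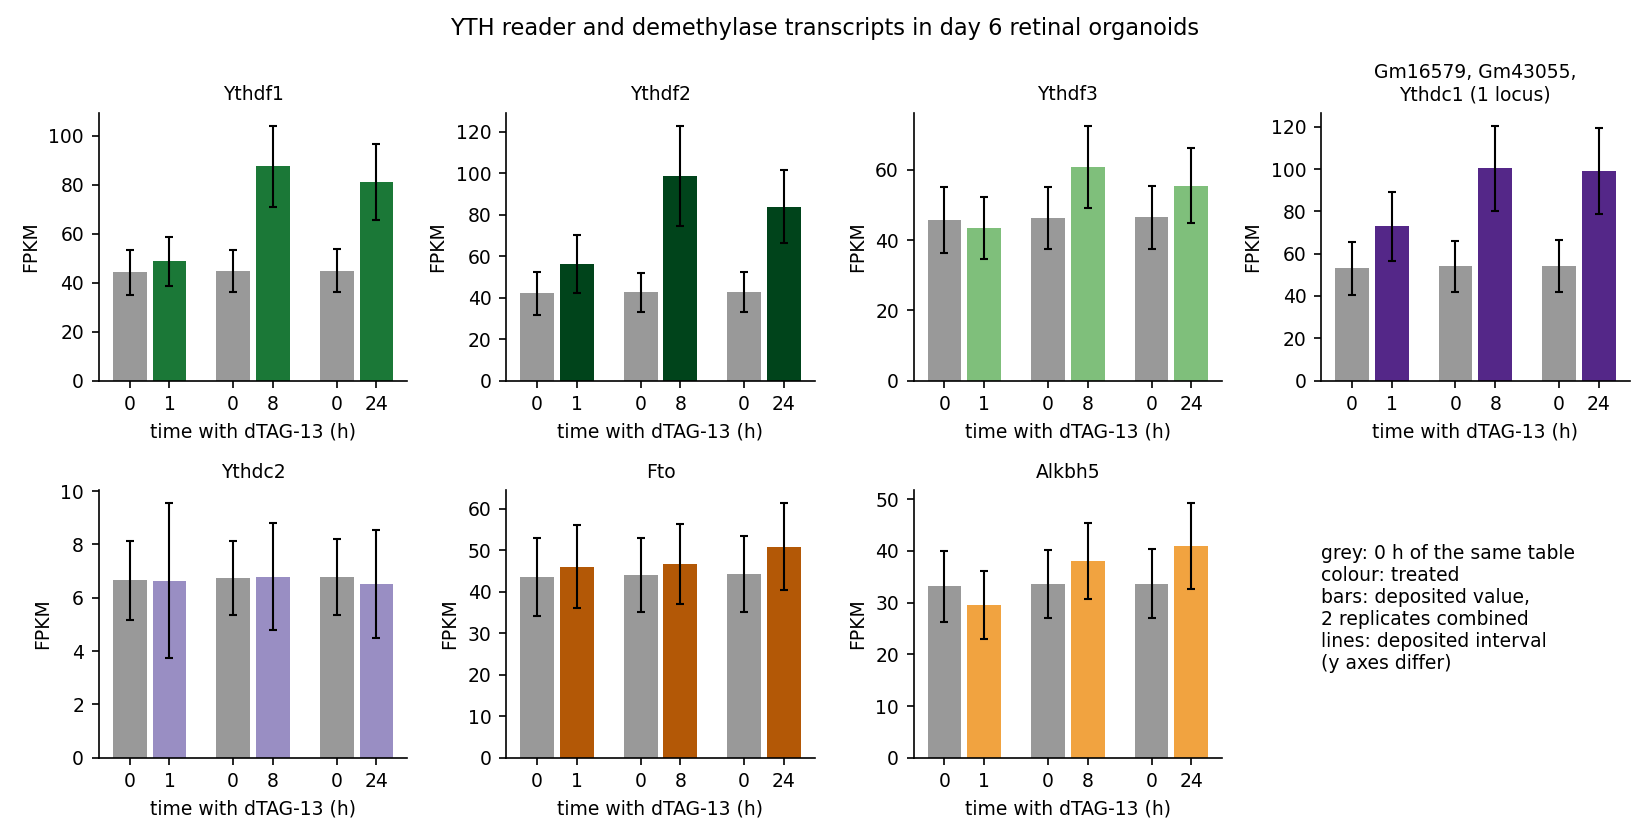
Deposited FPKM (y axes, which differ between panels) of the 6 members and of the locus shared by Gm16579, Gm43055 and Ythdc1, at each time with dTAG-13 (x axes, h). Grey bars are 0 h and coloured bars the treated condition of the same table, each combining 2 replicates, and lines are the deposited intervals. Only for Ythdf1, Ythdf2 and the shared locus, at 8 and 24 h, does the treated interval lie wholly above the 0 h interval.

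Ythdf2 and Ythdf1 rose at 8 and 24 h, and no other member with its own row was called at any time. At 1 h, 0 of 6 members were called in either direction, against 0.402% of 13690 loci in all, 0.117% higher and 0.285% lower. At 8 h, 2 of 6 were called, both higher, against 4.43% of 13825 loci in all, 3.49% higher and 0.940% lower. At 24 h the same genes were called, against 5.48% of 13910 loci in all, 3.83% higher and 1.65% lower. The same 2 members, and no other, were reached by either criterion of the rule alone at 8 and 24 h, and none was at 1 h. The background was then 0.402%, 4.56% and 5.51% of loci for separate intervals without a fold, and 5.16%, 13.7% and 17.0% for 1.5-fold without the intervals. The median log2 ratio of the 6 members was 0.04, 0.29 and 0.27 at 1, 8 and 24 h, beside 0.01, 0.01 and 0.02 over all loci tested. All 3 comparisons draw on the same 0 h libraries and are not independent of one another.

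Ythdf2, the reader known for recruiting the CCR4-NOT deadenylase to methylated mRNA, had the highest ratio of the members at 8 and 24 h. Its FPKM was 42.1 (31.8 to 52.3) at 0 h and 56.2 (42.1 to 70.3) at 1 h, 42.6 (33.2 to 52.0) and 98.7 (74.5 to 123) at 8 h, and 42.8 (33.2 to 52.3) and 83.8 (66.1 to 101) at 24 h. The intervals overlapped at 1 h and were apart at 8 h by 22.5 FPKM and at 24 h by 13.8 FPKM. The log2 ratios were 0.42 (SE 0.21) at 1 h, 1.21 (SE 0.19) at 8 h and 0.97 (SE 0.19) at 24 h. At 8 h only 143 of 13825 loci had a higher ratio, and at 24 h 448 of 13910 did. Although not called at 1 h, its ratio there exceeded that of 95.2% of loci. In estimated counts it went from 4360 (SD 412) to 9889 (SD 941) at 8 h.

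Ythdf1, the paralog first described as a promoter of translation of methylated mRNA, was called at the same times. Its FPKM was 44.3 (35.1 to 53.4) at 0 h and 48.7 (38.7 to 58.7) at 1 h, 44.8 (36.1 to 53.5) and 87.5 (70.9 to 104) at 8 h, and 45.0 (36.2 to 53.8) and 81.2 (65.6 to 96.7) at 24 h. The 8 and 24 h intervals lay wholly above those at 0 h. The log2 ratios were 0.14 (SE 0.21), 0.96 (SE 0.20) and 0.85 (SE 0.20) at 1, 8 and 24 h. Its ratio was above that of 97.7% of loci at 8 h and 95.4% at 24 h. The folds of Ythdf1 were 1.95 at 8 h and 1.80 at 24 h and that of Ythdf2 was 1.96 at 24 h, so a 2-fold threshold ends these 3 calls and leaves Ythdf2 at 8 h (2.31-fold).

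Ythdf3, which acts with both paralogs in the cytoplasm, was not called. Its FPKM was 45.8 (36.4 to 55.1) at 0 h and 43.5 (34.7 to 52.3) at 1 h, 46.3 (37.5 to 55.1) and 60.9 (49.3 to 72.5) at 8 h, and 46.5 (37.6 to 55.4) and 55.4 (44.7 to 66.1) at 24 h. The intervals overlapped at each time. The log2 ratios were -0.07 (SE 0.20), 0.39 (SE 0.19) and 0.25 (SE 0.19).

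Differences between members within a table were then computed for 15 pairs at each time, with an interval of 1.96 SE and no p-value. The 8 h ratio of Ythdf2 exceeded that of Ythdf3 by 0.82 (interval 0.28 to 1.35), and that of Ythdf1 exceeded it by 0.57 (0.03 to 1.10). At 24 h the differences were 0.72 (0.18 to 1.25) and 0.60 (0.06 to 1.14). Between Ythdf1 and Ythdf2 the interval included 0 at both times, and Ythdf1 minus Ythdf2 was -0.25 (-0.78 to 0.29) after 8 h and -0.12 (-0.66 to 0.42) after 24 h. Altogether, 8 of 15 pairs had an interval without 0 at 8 h and 8 of 15 at 24 h. Each of these pairs was Ythdf1 or Ythdf2 against one of the other 4 members. At 1 h it was 1 of 15, Ythdf2 against Alkbh5, at 0.58 (0.01 to 1.16). The intervals were not adjusted for the number of pairs, and they rest on the count variances and not on the FPKM intervals.

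The make-up of the cytoplasmic readers follows from these values. At 0 h in the 8 h table the summed FPKM of the 3 Ythdf genes was split nearly evenly, with 33.5% from Ythdf1, 31.9% from Ythdf2 and 34.6% from Ythdf3. At 8 h the shares were 35.4%, 39.9% and 24.7%, and at 24 h 36.8%, 38.0% and 25.1%. Ythdf3 thus went from the first to the last of the 3 in rank, while its own FPKM was not called. The 0 h intervals of the 3 genes overlapped, so the first rank is not resolved, and no error was computed for the shares. The sum itself was 1.85 times its 0 h value at 8 h and 1.64 times at 24 h. These are transcript shares, and protein was not measured.

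**Figure D2:**
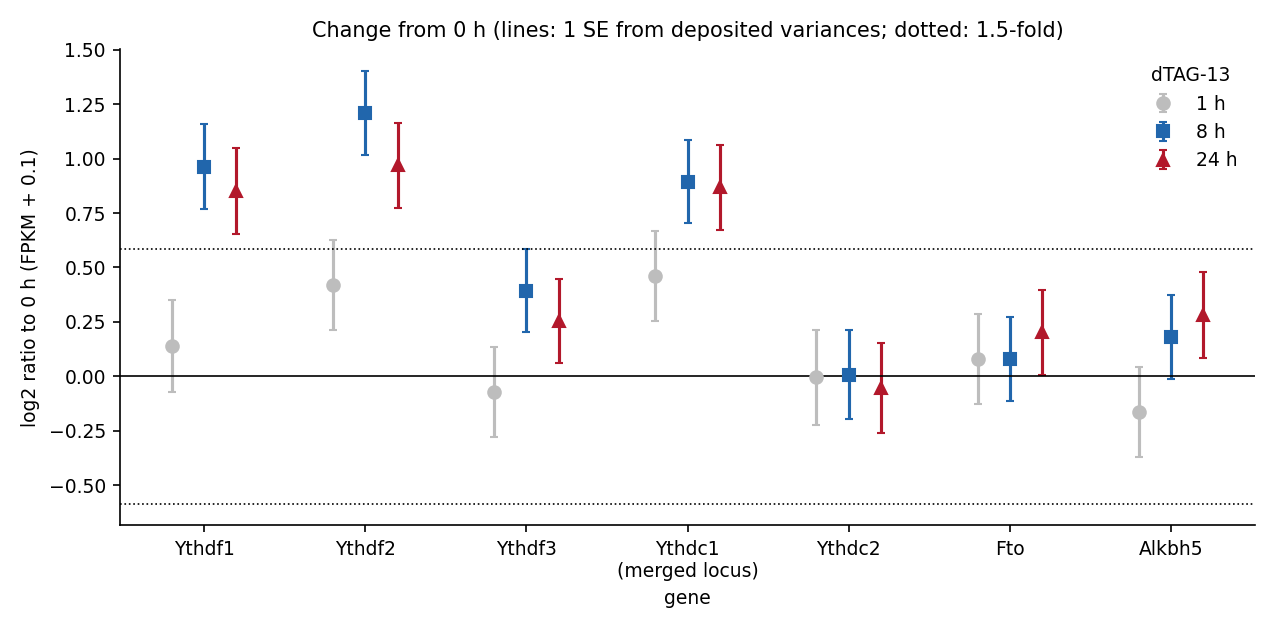
Log2 ratio of FPKM to 0 h, with 0.1 added to each value (y axis), for each member (x axis) at 1, 8 and 24 h. Points are single deposited comparisons, lines are 1 SE from the deposited count variances and dotted lines mark 1.5-fold. Ythdf1, Ythdf2 and the merged Ythdc1 locus lie above the upper line at 8 and 24 h, between 0.85 and 1.21, while the others lie within it.

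The locus that holds the nuclear reader Ythdc1 was also called higher at 8 and 24 h. Its FPKM was 53.0 (40.6 to 65.4) at 0 h and 73.0 (56.7 to 89.2) at 1 h, 53.9 (42.1 to 65.8) and 100.4 (80.3 to 120) at 8 h, and 54.1 (42.0 to 66.3) and 98.9 (78.6 to 119) at 24 h. The log2 ratios were 0.46 (SE 0.21), 0.89 (SE 0.19) and 0.87 (SE 0.20), and those of the estimated counts were 0.42, 0.78 and 0.78. The locus spans chromosome 5 from 86705186 to 86836659. It joins the 17-exon Ythdc1 gene (86804221 to 86836659) with the lincRNA Gm43055 (86728906 to 86817106) and the antisense-type gene Gm16579 (86728899 to 86759736), all on the plus strand. The locus begins before the annotated start of each of the 3 genes, and the stretch before them was not examined. The deposited tables give 1 value for the 3 genes, so the change cannot be assigned to Ythdc1. The ratio of Ythdf3 minus that of this locus was -0.50 (-1.03 to 0.03) at 8 h and -0.62 (-1.15 to -0.08) at 24 h.

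Ythdc2 (chromosome 18, 44827746 to 44889724) was not called. Its FPKM was 6.66 (5.17 to 8.15) and 6.64 (3.73 to 9.56) at 0 and 1 h, 6.74 (5.35 to 8.14) and 6.78 (4.77 to 8.79) at 0 and 8 h, and 6.77 (5.35 to 8.19) and 6.52 (4.49 to 8.56) at 0 and 24 h. Intervals overlapped throughout, with log2 ratios of -0.00, 0.01 and -0.05 (SE 0.22, 0.20 and 0.21). From estimated counts they were -0.13, -0.05 and -0.14, so the sign at 8 h depended on the unit. The 8 h ratio of Ythdf2 exceeded that of Ythdc2 by 1.20 (0.65 to 1.75).

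Neither demethylase was called. Fto (chromosome 8, 91313525 to 91668439), known for activity on m6A and on the methylated base beside the cap, had FPKM of 43.5 (34.1 to 52.9) and 46.0 (36.0 to 56.0) at 0 and 1 h, 44.0 (35.1 to 53.0) and 46.6 (37.0 to 56.2) at 0 and 8 h, and 44.2 (35.1 to 53.3) and 50.9 (40.4 to 61.3) at 0 and 24 h. Alkbh5 (chromosome 11, 60536381 to 60558512), a nuclear m6A demethylase, had 33.1 (26.2 to 40.0) and 29.6 (23.0 to 36.2), 33.5 (27.0 to 40.1) and 38.0 (30.8 to 45.3), and 33.7 (27.0 to 40.3) and 40.9 (32.6 to 49.2) in the same order. All intervals overlapped. At 8 h the log2 ratios were 0.08 (SE 0.19) for Fto and 0.18 (SE 0.19) for Alkbh5, and at 24 h 0.20 (SE 0.20) and 0.28 (SE 0.20). The 8 h ratio of Ythdf2 exceeded that of Fto by 1.13 (0.59 to 1.66) and that of Alkbh5 by 1.03 (0.49 to 1.56). Fto overlaps 8 other annotated genes. Those with a row of their own did not exceed 0.0351 FPKM, and any without such a row have no value here. No other gene of the annotation's basic set overlaps Ythdf1, Ythdf2, Ythdf3, Ythdc2 or Alkbh5.

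Gene structure was set beside these values, since a link between exon junction density and the 8 and 24 h ratios across all genes was already known from these data. The 3 Ythdf genes had 2.28 to 2.39 coding exon junctions per kilobase of coding sequence, where the median of 10964 tested genes was 6.16. Their densities were above those of 15.1% to 15.7% of genes, and their longest coding exons exceeded those of 93.6% to 94.4%. Ythdf3, with the lowest density and the longest coding exon of the 3, had the smallest ratios. Alkbh5 also had a low density, at 2.53, with 773 of its 1185 coding bases in exon 1, and was not called. Fto (5.31) and Ythdc2 (6.46) lay closer to the median, and Ythdc1, at 7.25, had more junctions per kilobase than the other members.

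Among 55 other tested genes with a density between those of Ythdf3 and Ythdf1, 7 were called higher at 8 h and 0 lower. This was 12.7%, against 3.92% of all 10959 non-member genes with a known structure, the 55 included. The median log2 ratio of the 55 was 0.36, beside 0.01 over the 10959. Of the 55, 0 had a higher 8 h ratio than Ythdf2 and 2 had a higher one than Ythdf1, and 28 were below Ythdf3. At 24 h the group held 53 genes, of which 7 were called higher. This was 13.2%, against 4.14% of 10959 genes with the 53 included, and the medians were 0.32 and 0.01. There 2 lay above Ythdf2 and 5 above Ythdf1. In order of rising density, Ythdf3, Ythdf2, Ythdf1, Alkbh5, Fto and Ythdc2 had 8 h ratios of 0.39, 1.21, 0.96, 0.18, 0.08 and 0.01. Between Ythdf1 and Ythdf2, and among Alkbh5, Fto and Ythdc2, the intervals of the differences included 0. The part of density in the members' ratios was not tested. The merged locus of 3 genes had a ratio of 0.89, which cannot be set against the density of Ythdc1 alone.

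**Figure D3:**
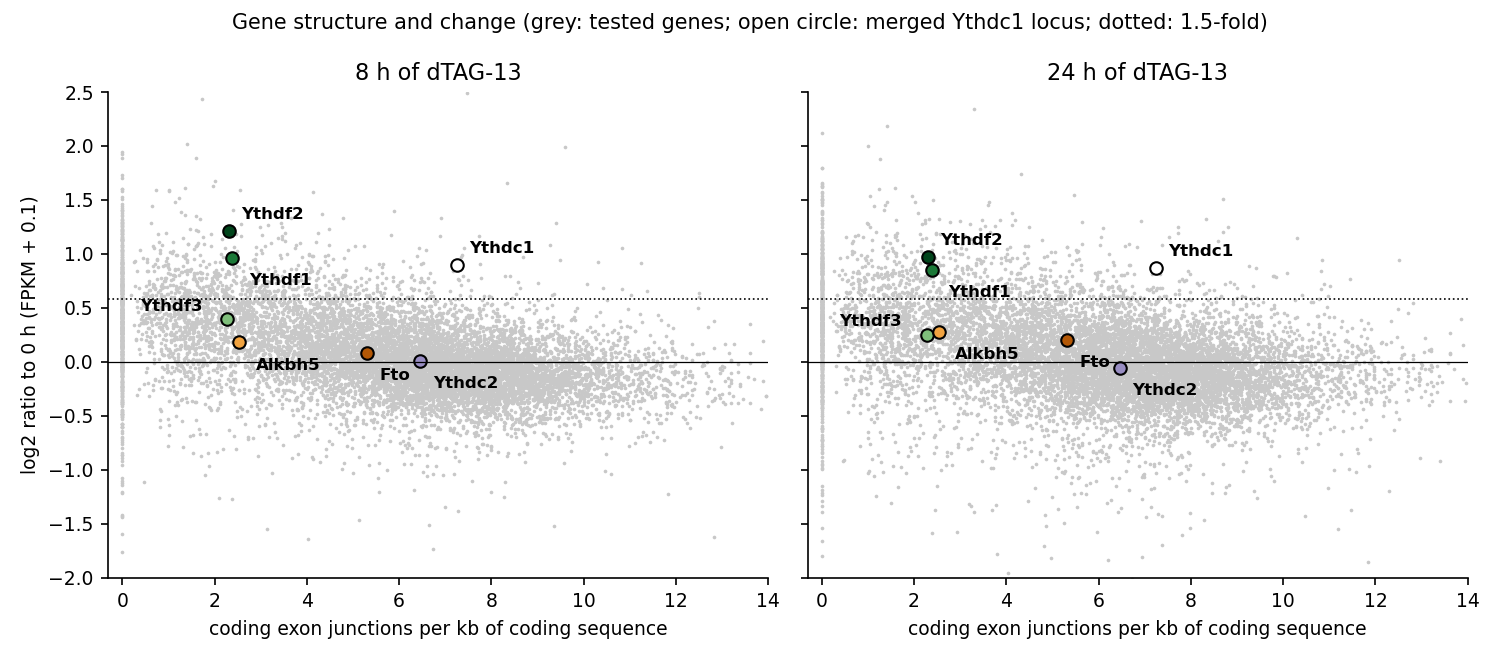
Log2 ratio of FPKM to 0 h (y axes) against coding exon junctions per kilobase of coding sequence (x axes) at 8 h (left) and 24 h (right). Grey points are tested genes, coloured points the members, the open circle the merged Ythdc1 locus, drawn at the density of Ythdc1, and the dotted line marks 1.5-fold, with grey points beyond the axes not drawn. The 3 Ythdf genes share a density of 2.28 to 2.39 but differ in ratio, from 0.39 to 1.21 at 8 h.

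Genes with the most similar course were found by the distance between their log2 ratios at 1, 8 and 24 h, over 3 comparisons and 6711 candidate genes with at least 10 FPKM at 0 h. For Ythdf2 the nearest was Wtap, a subunit of the m6A writer complex, at a distance of 0.19, with ratios of 0.30, 1.07 and 0.92. Bag5, a chaperone cofactor, followed with 0.35, 1.03 and 1.01, and then Kbtbd2 with 0.47, 1.00 and 0.94. For Ythdf1 the nearest was Pard6g, a polarity protein gene, at 0.04, with ratios of 0.11, 0.93 and 0.84. Fbxo30 (0.09, 0.97 and 0.85) and Ccdc71 (0.17, 0.95 and 0.90) came next. All 6 were called higher at 8 and 24 h. They were selected for likeness, so their ratios are a description.

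Other genes of the pathway were read from lists written with earlier results of these data known. Of 9 writers, 6 had a row of their own and were tested in each table. Of these, 5 were the same genes throughout, the other one being Virma at 1 h and Mettl16 at 8 and 24 h. At 8 and 24 h, 2 of the 6 rose and none fell, against 3.49% and 3.83% of all loci called higher. These were Wtap, from 56.9 (45.4 to 68.4) to 119 FPKM (95.8 to 143) at 8 h, and Cbll1, which encodes the E3 ligase-like subunit HAKAI, from 13.4 (10.8 to 16.0) to 22.5 FPKM (18.1 to 27.0). The median ratio of the writers tested was 0.32 at 8 h and 0.43 at 24 h. The catalytic partner Mettl14 was not called, with ratios of -0.05 and -0.06. Rbm15 shares a locus with Slc16a4, and this locus was called higher at 8 h (1.22) and 24 h (0.93), but the ratios in estimated counts (0.58 and 0.40) were both under 1.5-fold, which ends these calls in that unit.

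The other m6A-associated RNA-binding proteins and the partners of the readers are too few for their calls to be read apart from the 4.43% (8 h) and 5.48% (24 h) of all loci called. Of 8 such RNA-binding genes, 7 were tested, since Igf2bp1 had a failed status, and the median ratio was -0.14 at 8 h and -0.13 at 24 h. None was called at 8 h. At 24 h 1 was called lower, the splicing regulator Rbmx, which fell from 76.1 (60.8 to 91.3) to 25.4 FPKM (20.2 to 30.6), a log2 ratio of -1.58 (SE 0.20). At 8 h Rbmx stood at 82.5 FPKM (65.7 to 99.2). Of 10 tested partners, among them the CCR4-NOT scaffold Cnot1, the splicing factors Srsf3 and Srsf10 and the export factor Nxf1, none was called at 8 or 24 h, with medians of 0.00 and -0.03. Cnot1 had ratios of -0.24 at both times.

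Of the AlkB-family dioxygenases besides Fto and Alkbh5, 6 of 7 were tested. At 8 h 1 of the 6 rose, against 3.49% of all loci called higher. This was Alkbh4, a demethylase of actin, from 9.15 (6.26 to 12.0) to 16.1 FPKM (12.4 to 19.8), a ratio of 0.81 (SE 0.23). At 24 h it had a ratio of 0.72, and its intervals overlapped, with 9.18 (6.29 to 12.1) and 15.2 (11.6 to 18.9). The median of the family was 0.00 at 8 h and -0.01 at 24 h.

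**Figure D4:**
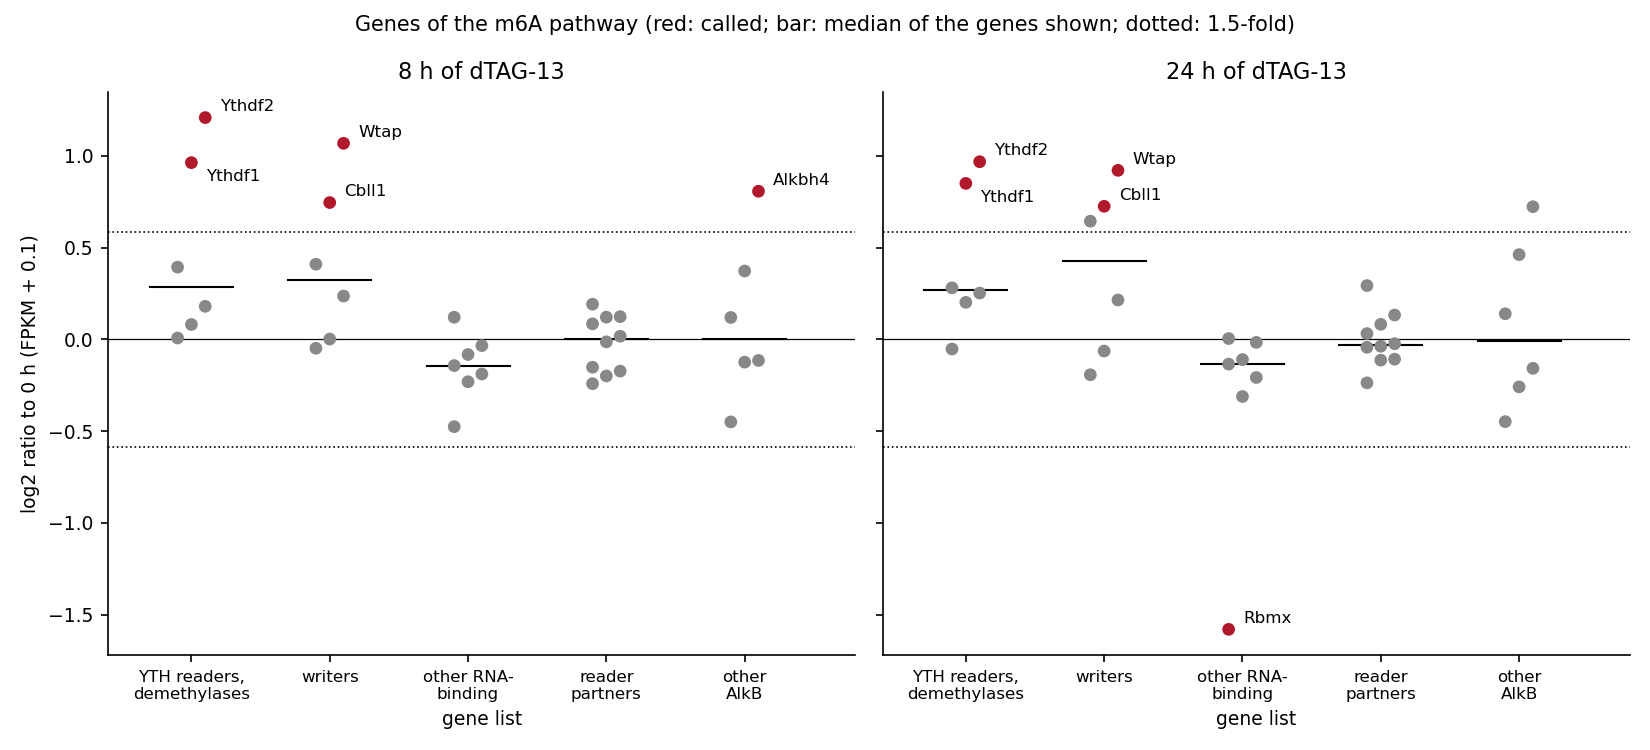
Log2 ratio of FPKM to 0 h (y axes) for the tested genes of each list (x axes) at 8 h (left) and 24 h (right). Red points are called genes, grey points are not called, bars are medians and dotted lines mark 1.5-fold. Called genes are Ythdf1, Ythdf2, Wtap and Cbll1 at both times, Alkbh4 at 8 h and Rbmx at 24 h.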

How the data were processed

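Polyadenylated RNA was sequenced as 150-base paired-end reads, and the 8 samples were grouped by their titles. The authors deposited, per the file headers, FPKM with an interval and estimated counts with a variance, in 1 column per condition that combines 2 replicates, in 3 pairs of tables normalized separately. Cufflinks 2.2.1, Cuffdiff and the build mm10 are named in the submitters' processing notes. The aligner, annotation and strandedness are not given in the sources used here. Ratios were formed within tables as log2((FPKM + 0.1)/(FPKM at 0 h + 0.1)). This scale understates the change of a low gene. Because columns are pooled, no count model could be fitted across samples. The SE of a ratio came from the deposited count variances by the delta method, so it shares the authors' variance model. Loci without a gene name held 1.04% to 1.08% of estimated counts and stayed in the background, and 7 to 10 loci per table without status OK were left out.

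The members and lists were chosen with earlier results of these data known. All members, called genes of the lists, Mettl3, and the 3 genes nearest in course to each member called at 8 and 24 h are named. Mettl14 and the reader partners without a call were added after their values were seen. Gene structures came from GENCODE M21 (GRCm38), 1 transcript per gene by APPRIS rank, ties going to the longer coding sequence. Of the members' own loci, each started at the annotated gene start. Python 3.11.15, pandas 2.3.3, Biopython 1.88 and matplotlib 3.10.9 were used. A 2 h treatment named in the labels was not analysed here, and the rounds of library preparation that the labels mention cannot be told apart in pooled columns.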

Additional observations from a re-analysis of the deposited data

How the results depend on the processing

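A 2-fold threshold left 1 called member at 8 h (Ythdf2) and 0 at 24 h, in place of 2 and 2; the folds of 1.80 to 1.96 lie just under it. Every other alternative gave 0 members at 1 h and 2 at 8 and 24 h (Ythdf1 and Ythdf2), among them pseudocounts of 0.01 and 1 FPKM, estimated counts, centred ratios and other filters on low values. Counting the merged locus as Ythdc1, an alternative chosen after seeing the data, gave 0, 3 and 3. Of 72 recomputed ratios of the 6 members, 72 stayed within 1 SE, and 2 changed sign, both Ythdc2 at 8 h. Over all loci, the 55, 612 and 762 calls at 1, 8 and 24 h became 707, 1896 and 2371 without the intervals, and 217 and 297 at 8 and 24 h with 2-fold. At 1 h they became 95 without a filter and 30 at 5 FPKM, and estimated counts gave 38 calls, 10.5% of them higher against 29.1%. No paired analysis was possible because the deposited columns combine the replicates, and for the same reason no replicate could be left out. Estimated counts of the members ranged from 1244 to 9889, so the authors' modelled variance rather than counting noise sets the error.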

Other observations

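The balance of reader to demethylase transcripts was not a comparison of the design. The summed FPKM of Ythdf1, Ythdf2 and Ythdf3 divided by that of Fto and Alkbh5 was 1.72 at 0 h in each of the 3 tables, and 1.96 at 1 h, 2.92 at 8 h and 2.40 at 24 h. The demethylase sum itself was 0.987, 1.09 and 1.18 times its 0 h value at these times. No error was computed for these ratios of sums.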
